A study of Mus musculus with 12 samples.

Results

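The genes described here are a set of chaperones and unfolded protein response genes, measured in mouse anterior striata; the animals were adolescent males of the outbred Swiss CD-1 stock. The set lists 40 genes: 14 cytosolic heat shock genes, 3 mitochondrial chaperones, 18 genes of the endoplasmic reticulum and 5 regulators of the unfolded protein response. A gene was measured where at least 1 probe set of the array carried its symbol and no other, and probe sets of 1 gene were averaged. That left 38 of the 40 genes, among 19938 genes measured in the same way. Hspa1b, which shares a probe set with its near-identical neighbour Hspa1a, and Hsp90ab1 have no probe set of their own and were not analysed here.

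All mice went through a 10-day conditioned place preference procedure, in which an animal learns to associate a compartment with a drug, and injections were given 15 minutes before entry to that compartment. The 4 groups of 3 arrays received saline, ethanol, mephedrone, or mephedrone with ethanol, which is called the combination here. Mephedrone is a synthetic cathinone, a stimulant that releases dopamine and serotonin. Doses and hours of collection are not given in the sources used here, nor whether each array holds a separate animal, so p-values measure the spread between these arrays, which may be technical.

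Heat shock genes encode chaperones that hold and refold proteins in the cytosol and nucleus, and many of them are switched on by heat shock factor 1 when unfolded proteins accumulate. The endoplasmic reticulum has its own sensors. Ire1, Perk and Atf6 report unfolded protein in its lumen, and through Xbp1, Atf4 and cleaved Atf6 they raise lumenal chaperones, disulphide isomerases and degradation factors. Mitochondria hold a separate Hsp70 (Hspa9) and the Hsp60 and Hsp10 pair (Hspd1 and Hspe1). In brain, drugs that change body temperature or calcium handling can engage these programmes.

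The promoters of the set separated by compartment in their sequence. RefSeq promoter windows of build GRCm38.p6, 250 bases before to 50 bases after a start site, were matched for 32 of the 40 genes. The other 8 are Hspa8, Hsp90aa1, Hsp90ab1, Cryab, Hspa9, Manf, Hyou1 and Atf6. A heat shock element, searched on both strands as GAANNTTC or TTCNNGAA, was found in 8 of 10 cytosolic genes and in 2 of 2 mitochondrial genes. It was found in 0 of 16 reticulum genes and 0 of 4 regulators, beside 17.0% of the 27025 genes in the promoter table. An endoplasmic reticulum stress element, searched on both strands as CCAAT, 9 bases of any kind and CCACG, was found in 7 of 16 reticulum genes (Hspa5, Hsp90b1, Dnajc3, Pdia6, Calr, Canx and Creld2) and in no other member, beside 0.137% of all genes. Its second form, ATTGG, 1 base and CCACG, was found in Dnajb11 and Herpud1, beside 0.0444% of all genes. An ATF4 element (TGATGNAA) was found in Herpud1 and Trib3, beside 4.51% of all genes. A match is a string of letters and not a shown binding site. Since the presence of these strings is part of what is known of such genes, the counts describe the set and its compartments.

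For cytosolic and mitochondrial genes to which the results return, 1 heat shock element per gene is shown with 8 flanking bases on each side. The lines run 5′ to 3′ on the strand of the gene, with the 8 bases of the shown element in capitals. Hspb1, Hsph1, Hspd1 and Hspe1 hold further matches, some overlapping the shown element, and these are not in capitals. Dnaja1 and Bag3 also hold an element and are not shown. The Hspd1 and Hspe1 lines are the same genomic bases read from opposite strands, since these neighbouring genes are transcribed away from each other. Hspa1a and Hspa1b carry the same letters at 2 places.
Dnajb4, chr3:152193844-152193867, minus strand: gttcgctgTTCTAGAAagtacaga
Hspb1, chr5:135887814-135887837, plus strand: tgggggcaGAACCTTCctggcccc
Hsph1, chr5:149636354-149636377, minus strand: tagaatctTTCTCGAAggctcgag
Hspb8, chr5:116422847-116422870, minus strand: agccaggaGAAGTTTCtaggctcg
Hspd1, chr1:55088051-55088074, minus strand: ccggaaggTTCTAGAAcggaccgt
Hspe1, chr1:55088051-55088074, plus strand: acggtccgTTCTAGAAccttccgg
Hspa1a, chr17:34972245-34972268, minus strand: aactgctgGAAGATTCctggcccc
Hspa1b, chr17:34959327-34959350, minus strand: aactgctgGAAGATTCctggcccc

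The reticulum genes named above carry a different string. It is shown in the same way, with the whole of the stress element or of its second form in capitals. Those of Hsp90b1, Calr and Canx are not shown. In Creld2 it lies on the opposite strand, so it reads from CGTGG to ATTGG.
Hspa5, chr2:34772017-34772051, plus strand: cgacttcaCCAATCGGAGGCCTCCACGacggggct
Dnajc3, chr14:118937819-118937853, plus strand: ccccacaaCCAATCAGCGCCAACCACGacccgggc
Pdia6, chr12:17266483-17266517, plus strand: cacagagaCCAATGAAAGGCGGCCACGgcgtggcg
Creld2, chr15:88819512-88819546, plus strand: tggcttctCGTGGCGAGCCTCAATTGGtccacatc
Dnajb11, chr16:22857844-22857870, plus strand: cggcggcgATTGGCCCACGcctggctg
Herpud1, chr8:94386369-94386395, plus strand: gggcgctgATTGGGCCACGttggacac

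Longer stretches are given for 1 gene of each kind, the cytosolic and the reticulum gene with the smallest F test p among those holding the element. Each is the 250 bases before the start site, with the element in capitals. The Dnajb4 element begins 14 bases before the start and the Hspa5 element 65 bases before it. Dnajb4 has 2 start sites in the table, and this is the window that holds the element.
Dnajb4, chr3:152193846-152194095, minus strand: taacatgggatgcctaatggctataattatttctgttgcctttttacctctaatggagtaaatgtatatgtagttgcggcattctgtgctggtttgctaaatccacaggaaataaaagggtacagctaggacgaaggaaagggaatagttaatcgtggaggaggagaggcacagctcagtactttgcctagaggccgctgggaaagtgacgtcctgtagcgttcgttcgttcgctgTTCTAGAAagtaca
Hspa5, chr2:34771840-34772089, plus strand: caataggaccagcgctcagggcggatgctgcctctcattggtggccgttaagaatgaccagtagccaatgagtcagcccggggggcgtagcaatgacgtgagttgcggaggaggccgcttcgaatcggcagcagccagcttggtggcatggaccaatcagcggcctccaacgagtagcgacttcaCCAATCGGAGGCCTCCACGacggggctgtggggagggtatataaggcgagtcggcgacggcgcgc

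Every value below is on the log2 scale and is the difference of a gene on 1 array from its median over the 12 arrays, so that a value of 0 is the middle of the 12 arrays and not an absence of RNA. Before that centring, 46 of the 48 probe sets of the set lay at a log2 level of 8 or more, as read from the numerical steps of the deposited values. The 2 below were that of Trib3 and 1 of the pair for Pdia4. The 10 probe sets of striatal projection neuron markers, such as Drd2 and Penk, all lay at 8 or more, against 1 of 12 for choroid plexus markers. Differences were tested with limma on all 19938 genes, with Benjamini-Hochberg adjustment over all of them and a threshold of 0.05. Differences carry the standard error (SE) of this fit, and group means carry the SD over 3 arrays.

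Combination replicate 3 and ethanol replicate 1 stood apart from the other arrays. The SD of all probe sets on the array was 0.17 and 0.13 there, against 0.068 to 0.10 on the other 10. In combination replicate 3 the mean over 12 choroid plexus markers was 1.76, over 10 oligodendrocyte markers 0.54, over 10 cortical neuron markers 0.66 and over 10 striatal projection neuron markers -0.35. In ethanol replicate 1 the choroid plexus mean was 0.77 and the striatal mean -0.19. There the mean over 11 hypothalamic and ventral forebrain markers was 0.42, the highest of the 12 arrays. That mean was 0.16 in saline replicate 1 and -0.23 in saline replicate 2, and the cortical mean was -0.29 and 0.28 on these arrays. The part of such regional differences in the values of the members was not tested. The choroid plexus mean was also high in saline replicate 2 (1.03), combination replicate 2 (0.58) and mephedrone replicate 1 (0.58). In a piece of tissue, more cells of a type and more RNA per cell cannot be told apart.

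**Figure D1:**
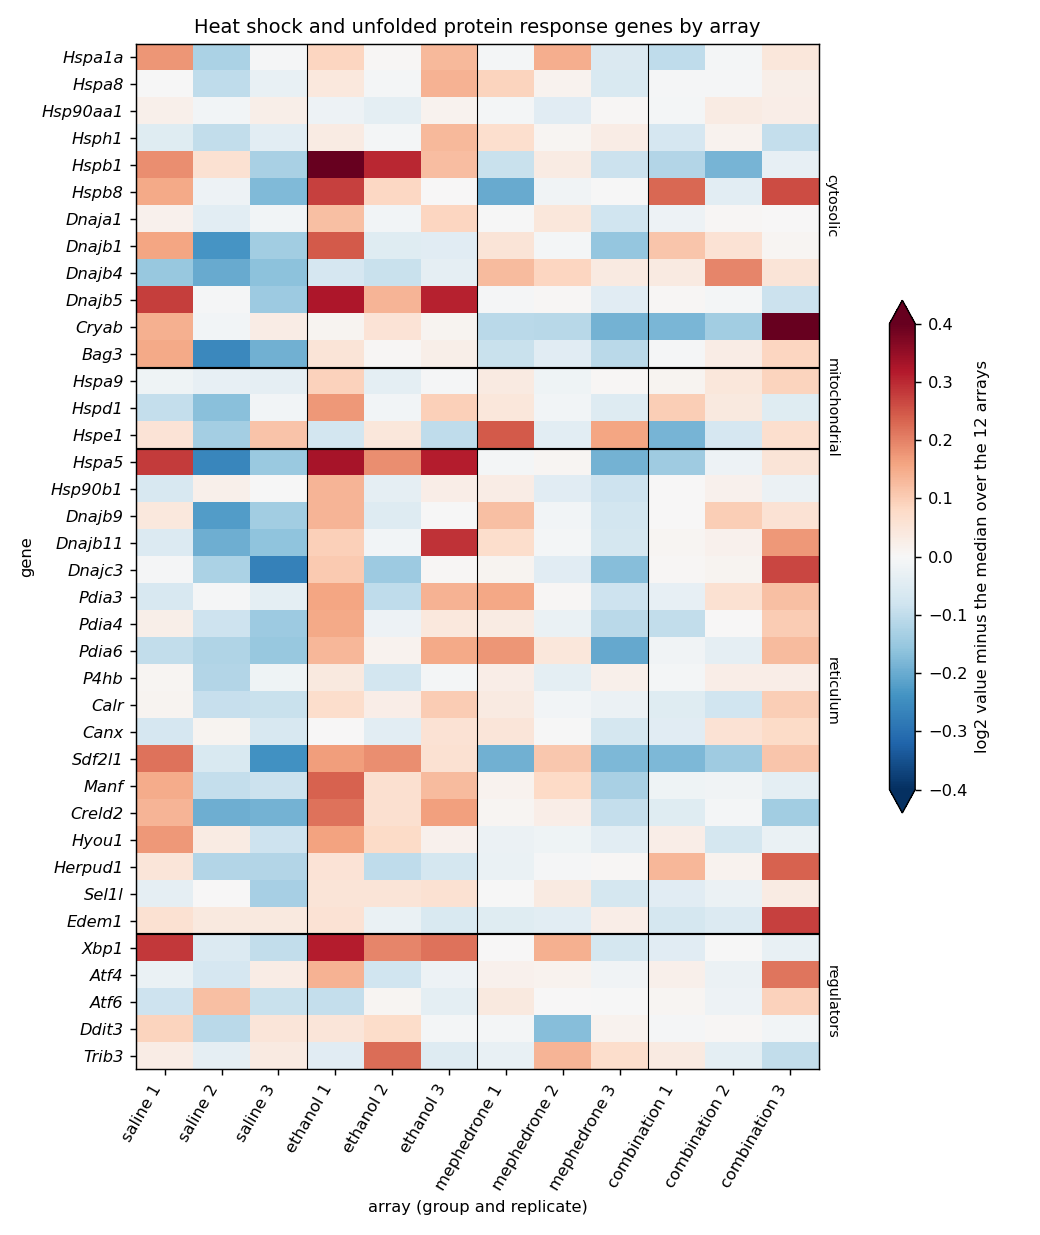
Centred log2 values of the 38 genes (rows, by compartment) on the 12 arrays (columns), with red above and blue below the median over arrays and the colour scale ending at 0.4 in either direction. Dnajb4 is below 0 on all 6 arrays without mephedrone and above 0 on all 6 with it. Many reticulum genes are high in ethanol replicates 1 and 3 and in combination replicate 3.

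The cytosolic genes held the 1 difference that passed the test. Dnajb4, an Hsp40 co-chaperone that delivers substrates to Hsp70, was higher in the 6 arrays of the mephedrone and combination groups than in the 6 of the saline and ethanol groups. In saline it stood at -0.15, -0.20 and -0.17. In ethanol it stood at -0.068, -0.090 and -0.035, in mephedrone at 0.13, 0.087 and 0.036, and in the combination at 0.035, 0.20 and 0.050. No array with mephedrone overlapped an array without it, and the ethanol arrays all lay above the saline arrays. The difference was 0.21 (SE 0.032; limma, adjusted p = 0.0420), or 1.15-fold. Across all genes 0.115% were called in this comparison, 0.0853% higher and 0.0301% lower, and 0.908% were higher without overlap.

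The call on Dnajb4 lay close to the threshold, though its size changed little. Without saline replicate 1, 2 or 3, ethanol replicate 2 or 3, mephedrone replicate 1, 2 or 3, or combination replicate 1 or 2 it was lost (adjusted p from 0.0570 to 0.147), while the difference stayed between 0.18 and 0.22. It remained without ethanol replicate 1 (adjusted p = 0.0421) and without combination replicate 3 (adjusted p = 0.0361). Of the 20 other settings tried, 8 called it, and it was above 0 in all 20. Against saline alone, the difference was 0.26 (SE 0.045) for mephedrone and 0.27 (SE 0.045) for the combination, with adjusted p of 0.262 and 0.0889 in limma. Against ethanol it was 0.15 for mephedrone and 0.16 for the combination (SE 0.045 for each; adjusted p 0.617 and 0.312). These contrasts share their saline or their ethanol arrays. The F test over the 4 groups gave an adjusted p of 0.175.

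**Figure D2:**
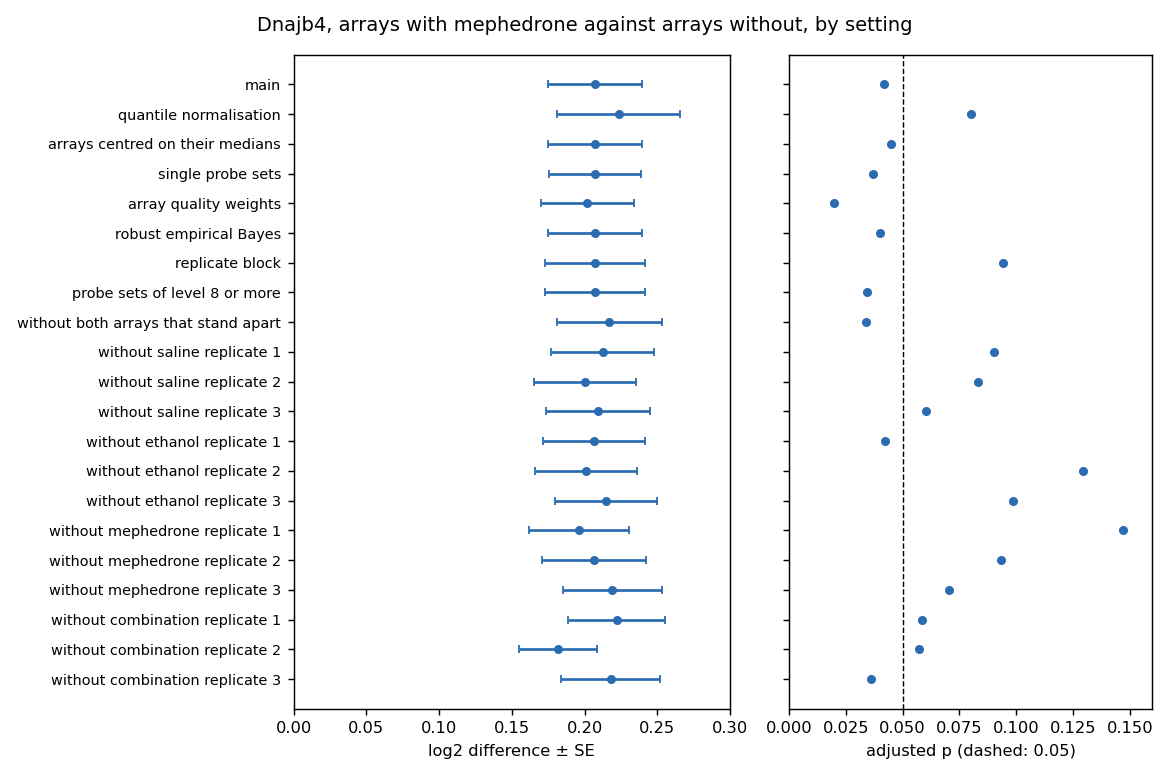
Dnajb4 in the 6 arrays with mephedrone against the 6 without, under the main fit and 20 other settings: log2 difference with its SE (left) and adjusted p with a dashed line at 0.05 (right). The difference runs from 0.18 to 0.22 throughout, while the adjusted p runs from 0.0200 to 0.147 and lies below 0.05 in the main fit and in 8 other settings.

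No other cytosolic member passed in any comparison. Hspb1, the small heat shock protein Hsp27, stood at 0.19, 0.060 and -0.13 in saline and at 0.44, 0.30 and 0.12 in ethanol. It stood at -0.090, 0.034 and -0.087 in mephedrone, and at -0.12, -0.18 and -0.034 in the combination. The 3 ethanol arrays were above all 6 arrays with mephedrone, while saline overlapped both. The mean over 9 microglia markers ran from 0.043 to 0.093 in ethanol, above mephedrone (-0.064 to -0.0084) and the combination (-0.099 to 0.015), with saline at -0.017 to 0.11. The mean over 10 endothelium markers ran from 0.0038 to 0.18 in ethanol, -0.053 to 0.049 in mephedrone and -0.087 to -0.036 in the combination. The part of these cells in the values of Hspb1, and in those of Dnajb5, Hspa5, Creld2 and Xbp1 given below, was not tested. Hspb1 was lower by 0.40 in the combination than in ethanol (SE 0.089; limma, adjusted p = 0.211) and by 0.34 in mephedrone than in ethanol (SE 0.089; adjusted p = 0.545). Over all 6 arrays with mephedrone it differed by -0.24 (SE 0.063; adjusted p = 0.130), and none of these passed. Its 2 probe sets gave -0.25 and -0.24 in that last comparison.

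Dnajb5, another Hsp40 co-chaperone, also had its highest group mean in ethanol. It stood at 0.28, -0.0049 and -0.14 in saline, at 0.32, 0.14 and 0.31 in ethanol, at -0.0039, 0.0041 and -0.045 in mephedrone, and at 0.0039, -0.0065 and -0.084 in the combination. Ethanol lay above both mephedrone groups without overlap, and saline replicate 1 was as high as ethanol. The difference from ethanol was -0.28 (SE 0.088) in the combination and -0.27 (SE 0.088) in mephedrone, with adjusted p of 0.337 and 0.660 in limma.

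Hsph1, the Hsp110 nucleotide exchange factor of Hsp70, stood at -0.048, -0.10 and -0.042 in saline and at 0.034, -0.0073 and 0.13 in ethanol. It stood at 0.068, 0.0073 and 0.030 in mephedrone, and at -0.068, 0.013 and -0.096 in the combination. Either drug alone lay above saline without overlap, and the combination overlapped saline. The interaction, which is the ethanol difference with mephedrone minus that without it, was -0.20 (SE 0.062; limma, adjusted p = 1.00). It did not pass, and Hsph1 had the smallest p of the 38 genes there.

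Hspb8, a small heat shock protein that works with Bag3 in selective autophagy, stood at 0.15, -0.021 and -0.18 in saline, at 0.27, 0.082 and 0.0031 in ethanol, at -0.20, -0.015 and -0.0031 in mephedrone, and at 0.23, -0.042 and 0.26 in the combination. All ethanol arrays lay above all mephedrone arrays, by a margin of under 0.01, and the other groups overlapped. The combination exceeded mephedrone by 0.22 (SE 0.10; limma, adjusted p = 0.992).

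Cryab, the alpha-B crystallin of oligodendrocytes and lens, differed most on a single array. It stood at 0.14, -0.0096 and 0.029 in saline and at 0.0096, 0.054 and 0.0099 in ethanol. Mephedrone gave -0.11, -0.11 and -0.19, and the combination -0.18, -0.14 and 0.52. The value of 0.52 is that of combination replicate 3, in which the oligodendrocyte markers stood at 0.54. The other 5 arrays with mephedrone lay below all 6 without it. The mephedrone difference was -0.074 (SE 0.10; limma, adjusted p = 0.830) over all arrays. It was -0.19 (SE 0.036; adjusted p = 0.0429) without both arrays that stood apart, and -0.19 (adjusted p = 0.0611) without combination replicate 3 alone. The part of oligodendrocyte RNA in these values was not tested; over the mephedrone arrays the mean of the oligodendrocyte markers ran from -0.18 to 0.032, and over the saline arrays from 0.0092 to 0.15. In combination replicates 1 and 2 the mean of the oligodendrocyte markers was -0.038 and -0.021, and over the ethanol arrays it ran from -0.057 to 0.032.

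The remaining cytosolic genes had no call and overlapping groups in most comparisons. Hsp90aa1, the inducible form of cytosolic Hsp90, ranged over only 0.078 across the 12 arrays, and its SD within groups was at the 1.89th percentile of all genes. Hspa8, the constitutive Hsp70, ranged over 0.24, and Dnaja1, an Hsp40 that partners it, over 0.20. Hspa1a, the heat-inducible Hsp70, had group means of 0.015 ± 0.15 in saline, 0.074 ± 0.064 in ethanol, 0.026 ± 0.11 in mephedrone and -0.021 ± 0.074 in the combination (SD, n = 3). Dnajb1 and Bag3, both strongly heat-inducible elsewhere, ranged over 0.48 and 0.41, with saline replicate 1 (0.16 and 0.15) far from saline replicate 2 (-0.24 and -0.26). The probe set shared by Hspa1a and Hspa1b differed by -0.018 (SE 0.042) over the mephedrone arrays.

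**Figure D3:**
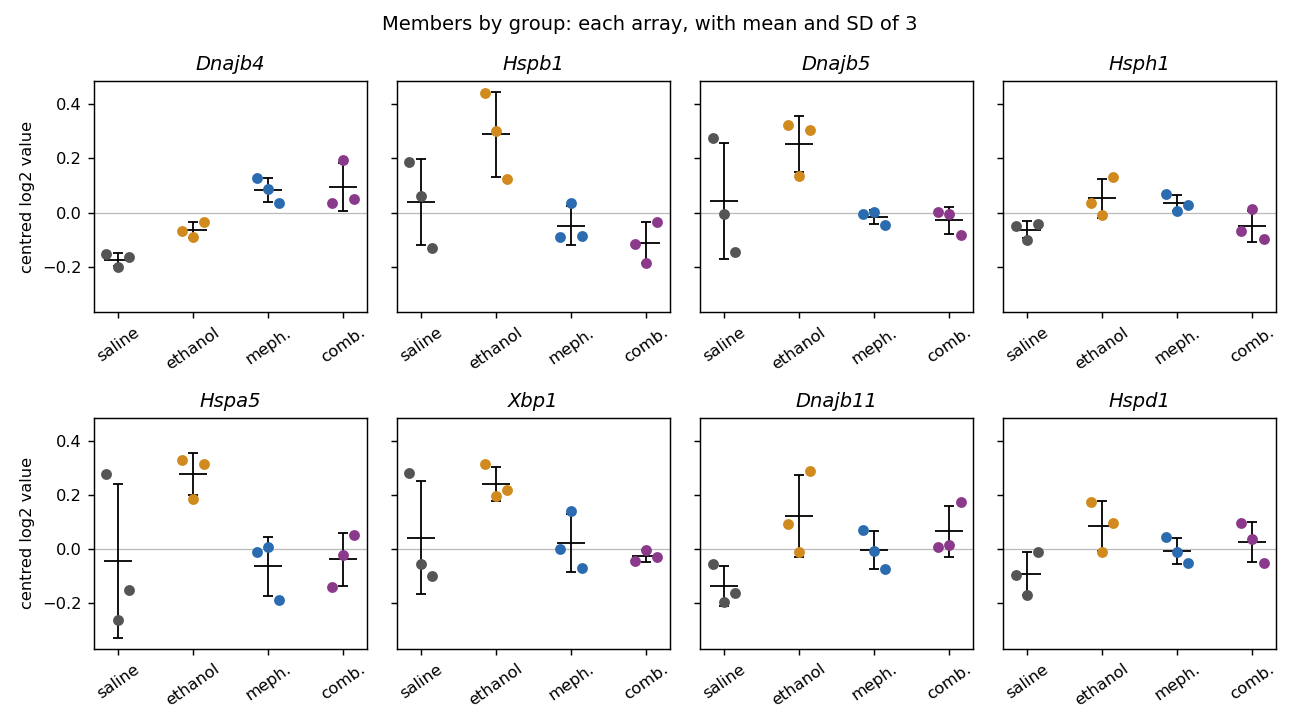
Centred log2 values of 8 members by group: points are arrays, horizontal bars the mean and vertical bars the SD of 3 arrays. Dnajb4 separates the groups with mephedrone from those without, whereas Hspb1, Dnajb5, Hspa5 and Xbp1 have their highest mean in ethanol. For Dnajb5, Hspa5 and Xbp1, 1 saline array stands apart from the other saline arrays and lies among the ethanol arrays.

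The 3 mitochondrial genes gave no call. Hspd1, the Hsp60 chamber, stood at -0.094, -0.17 and -0.010 in saline, at 0.17, -0.010 and 0.097 in ethanol, at 0.046, -0.011 and -0.051 in mephedrone, and at 0.097, 0.038 and -0.049 in the combination. Ethanol exceeded saline by 0.18 (SE 0.058; limma, adjusted p = 0.997), with 1 saline array level with the lowest ethanol array. Hspe1, its Hsp10 lid, stood at 0.053, -0.14 and 0.11 in saline, at -0.072, 0.045 and -0.10 in ethanol, at 0.24, -0.041 and 0.16 in mephedrone, and at -0.19, -0.067 and 0.066 in the combination. The groups of Hspe1 overlapped, and the combination differed from mephedrone by -0.18 (SE 0.088; limma, adjusted p = 0.992). That difference was -0.12 without mephedrone replicate 1 or combination replicate 1. The order of group means was not the same in this pair with 1 shared promoter region: ethanol was the highest group for Hspd1 and mephedrone for Hspe1. Hspa9, the mitochondrial Hsp70 that drives protein import, ranged from -0.038 to 0.094. Both mephedrone against saline and the combination against saline were without overlap, at differences of 0.037 and 0.077 (limma, adjusted p 0.949 and 0.473). For mephedrone the margin was slight, as its lowest array stood at -0.0156 and the highest saline array at -0.0158.

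Among the reticulum genes no gene was called. Ethanol was the group with the highest mean for 12 of 18 and the combination for the other 6. Of the cytosolic genes 6 were highest in ethanol and 6 in the combination. The matching shares over all genes were not computed, so these counts only describe the members. Hspa5, the lumenal Hsp70 BiP that binds the stress sensors, stood at 0.28, -0.26 and -0.15 in saline, and at 0.33, 0.19 and 0.31 in ethanol. It stood at -0.0092, 0.0092 and -0.19 in mephedrone, and at -0.14, -0.020 and 0.052 in the combination. Ethanol lay above both mephedrone groups without overlap, and saline replicate 1 lay among the ethanol arrays. Ethanol against saline was 0.32 (SE 0.12; limma, adjusted p = 0.997), and the combination against ethanol was -0.31 (SE 0.12; adjusted p = 0.418). Without saline replicate 1 the first of these was 0.48 (SE 0.077; adjusted p = 0.142), over 1.5 times the size.

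Dnajb11, an Hsp40 that works with BiP on newly made proteins, stood at -0.054, -0.19 and -0.16 in saline, and at 0.094, -0.010 and 0.29 in ethanol. It stood at 0.071, -0.0073 and -0.071 in mephedrone, and at 0.0073, 0.016 and 0.17 in the combination. All 3 saline arrays lay below all ethanol and all combination arrays. Its difference from saline was 0.26 in ethanol (SE 0.075), 0.20 in the combination and 0.13 in mephedrone, with adjusted p of 0.997, 0.323 and 0.783 in limma.

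Creld2, a secreted disulphide isomerase-like factor, stood at 0.14, -0.20 and -0.19 in saline, at 0.22, 0.064 and 0.16 in ethanol, at 0.0063, 0.026 and -0.095 in mephedrone, and at -0.048, -0.0063 and -0.14 in the combination. Ethanol lay above both mephedrone groups, and saline replicate 1 was again among the ethanol values. Ethanol against saline was 0.23 (SE 0.082; adjusted p = 0.997) and the interaction -0.28 (SE 0.12; adjusted p = 1.00), both by limma.

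Herpud1, a membrane protein of the degradation complex, had its highest mean in the combination rather than in ethanol. It stood at 0.047, -0.12 and -0.12 in saline, at 0.056, -0.10 and -0.072 in ethanol, at -0.025, -0.0062 and 0.0062 in mephedrone, and at 0.13, 0.015 and 0.24 in the combination. All combination arrays lay above all mephedrone arrays, and the 0.24 is that of combination replicate 3. The combination exceeded saline by 0.19 (SE 0.064; limma, adjusted p = 0.282) and mephedrone by 0.14 (SE 0.064; adjusted p = 0.992). Edem1 (0.27) and Dnajc3 (0.27), which act in degradation and as a BiP co-chaperone, and the transcription factor Atf4 (0.21) were also at their highest in combination replicate 3. Without that array the combination exceeded ethanol by 0.11 for Herpud1 and by 0.020 for Dnajc3, against 0.17 and 0.11 with it. The excess of Herpud1 over mephedrone was then 0.082.

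The isomerases and lectin chaperones had no call. Pdia6, a disulphide isomerase, differed from saline by 0.22 in ethanol and Calr, the lectin chaperone calreticulin, by 0.12, both without overlap. Sel1l, the scaffold of the degradation complex, had the smallest SD of the 38 genes among the ethanol arrays, at 0.051, 0.053 and 0.060, above all saline values of -0.036, 0.0011 and -0.13. P4hb, Canx and Hsp90b1 ranged over 0.15, 0.15 and 0.22 across the 12 arrays. The 2 Pdia4 probe sets disagreed, at 0.25 (SE 0.093) and 0.0062 (SE 0.047) in ethanol against saline, the second being the dim one.

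Of the regulators, Xbp1 had its highest group mean in ethanol, as Hspa5 did. Xbp1, the factor that Ire1 splices, stood at 0.28, -0.055 and -0.099 in saline, and at 0.31, 0.20 and 0.22 in ethanol. It stood at 0.0018, 0.14 and -0.069 in mephedrone, and at -0.044, -0.0018 and -0.029 in the combination. Ethanol lay above both mephedrone groups without overlap. The combination differed from ethanol by -0.27 (SE 0.088; limma, adjusted p = 0.363) and did not pass. The array values are of total Xbp1 and do not separate the spliced form. Ddit3, which encodes the pro-death factor Chop, stood at 0.088, -0.11 and 0.048 in saline, at 0.050, 0.073 and -0.0084 in ethanol, at -0.0074, -0.17 and 0.014 in mephedrone, and at -0.0059, 0.0059 and -0.010 in the combination. Its groups overlapped throughout (F test, adjusted p = 0.896). Atf4, Atf6 and Trib3, a target of Atf4 and Chop, ranged over 0.29, 0.22 and 0.32 with no call in any comparison.

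Seen contrast by contrast, no member was called in ethanol, mephedrone or the combination against saline (0, 0 and 0.01% of all genes called), or in the combination against mephedrone (0%). Likewise none was called in mephedrone against ethanol (0%), the combination against ethanol (0.0251%), the ethanol main effect (0%), the interaction (0%) or the F test (0.00502%), by limma. At an unadjusted p under 0.05 the counts of members were 12 for ethanol against saline, 2 for mephedrone and 4 for the combination against saline. They were 0 for the combination against mephedrone, 5 for mephedrone and 9 for the combination against ethanol, 4 for the ethanol main effect, 3 for the interaction and 8 for the F test. Among all genes the matching shares were 4.98%, 7.23%, 12.1%, 3.31%, 6.28%, 9.73%, 4.57%, 3.54% and 8.35%. For the mephedrone main effect it was 5 members, beside 12.6% of all genes. These counts rested on single arrays. The share of all genes in the same setting is given in brackets. Leaving out saline replicate 1 alone gave 14 members for the ethanol main effect (6.28%) and 9 for the interaction (4.74%). For mephedrone it gave 10 against ethanol (6.5%) and 4 against saline (6.37%). For the combination it gave 8 against saline (10.8%) and 3 against mephedrone (3.17%). The ethanol main effect came to 1 without ethanol replicate 1 (4.09%), and to 2 without saline replicate 3 (3.64%) or mephedrone replicate 3 (3.14%). The interaction came to 1 without ethanol replicate 1 (5.14%), saline replicate 3 (3.19%) or mephedrone replicate 2 (3%). It came to 5 without ethanol replicate 2 (3.79%) and to 6 without mephedrone replicate 3 (2.99%). Mephedrone against ethanol came to 3 without mephedrone replicate 3 (4.68%), 9 without mephedrone replicate 2 (5.36%) and 11 without ethanol replicate 2 (5.87%). Dropping ethanol replicate 3 brought the combination against ethanol to 4 (7.45%), and dropping combination replicate 1 brought it to 5 (10.6%). The combination against saline came to 7 (13.9%) on dropping ethanol replicate 1. The mephedrone main effect came to 3 without mephedrone replicate 3 (11.5%). Mephedrone against saline stayed between 1 and 4 whichever array was left out, with shares from 4.57% to 8.73%. The combination against mephedrone likewise stayed between 0 and 3, with shares from 1.82% to 6.73%.

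The 12 members of ethanol against saline were all higher in ethanol: Hsph1, Hspb1, Dnajb4, Dnajb5, Hspd1, Hspa5, Dnajb11, Pdia6, Calr, Creld2, Sel1l and Xbp1. Of all genes 4.07% were higher at that unadjusted threshold and 0.908% lower. The difference was above 0 for 33 of 38 members, beside 58.9% of all genes, and its median was 0.11 for the members and 0.011 for all genes. Most members are bright on the array. When only probe sets at a level of 8 or more were used, it was above 0 for 32 members and 65.6% of genes. Of these 12, the arrays of 6 did not overlap (Hsph1, Dnajb4, Dnajb11, Pdia6, Calr and Sel1l), beside 6.1% of all genes. Lack of overlap with saline was seen for 3 members higher (9.99% of all genes) and 2 lower (4.74%) in mephedrone, and for 5 higher (11.7%) in the combination. The combination exceeded mephedrone without overlap in 2 members, Bag3 and Herpud1 (4.88%). The count of 12 rested on single arrays. It ranged from 3 on dropping saline replicate 3 (3.42% of all genes) to 19 on dropping saline replicate 1 (7.44%). The medians were 0.075 and 0.12 there. The count was 4 without ethanol replicate 1 (4.87%), with a median of 0.070. It was 5 without either saline replicate 2 (3.51%) or ethanol replicate 3 (4.49%). Without ethanol replicate 1 the difference was still above 0 for 32 members, and no member was called under any of these settings.

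The compartments were then set beside each other, with no test over genes. For ethanol against saline the median was 0.11 over the 12 cytosolic genes, 0.12 over the 18 reticulum genes, 0.046 over the 3 mitochondrial genes and 0.032 over the 5 regulators. Single arrays moved these medians. The cytosolic one was 0.068 without saline replicate 2, and the reticulum one 0.080 without saline replicate 3 or ethanol replicate 1. The mitochondrial one was 0.0080 without ethanol replicate 1 and 0.074 without ethanol replicate 2. That of the regulators was 0.013 without saline replicate 2, 0.011 without ethanol replicate 2 and 0.053 without ethanol replicate 3. With all arrays the difference was above 0 for 10 of 12, 17 of 18, 2 of 3 and 4 of 5 genes of these compartments. When all 6 arrays with ethanol were set against all 6 without, the difference was above 0 for 12 of 12 cytosolic and 18 of 18 reticulum genes, 2 of 3 mitochondrial genes and 3 of 5 regulators, beside 58.8% of all genes. The largest of these was 0.18, for Hspb8. When only probe sets at a level of 8 or more were used, 67.6% of genes were above 0 in this comparison. The median was 0.073 for cytosolic and 0.075 for reticulum genes, beside 0.0088 for all genes. These genes vary together from array to array, as described further on, so such counts are not counts of independent genes.

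Mephedrone against ethanol gave the opposite sign, and it shares the ethanol arrays. The difference was below 0 for 32 of 38 members, at a median of -0.071, beside 47.5% of all genes above 0 and a median of -0.0033. The members' median was -0.037 without mephedrone replicate 3, -0.047 without ethanol replicate 1 and -0.11 without ethanol replicate 2. Of the 11 members without overlap, 10 were lower in mephedrone (6.7% of all genes) and Dnajb4 was higher (5.56%). In the combination against ethanol 23 were below 0, at a median of -0.049, beside -0.00067 for all genes. That median was -0.024 without ethanol replicate 1 and -0.075 without ethanol replicate 2. There 7 members were lower without overlap (Hspb1, Dnajb5, Hspa5, Manf, Creld2, Sel1l and Xbp1; 6.78% of all genes), and Dnajb4 was higher (6.44%). The medians by compartment were -0.023 cytosolic, -0.058 reticulum, -0.019 mitochondrial and -0.041 for the regulators. Leaving out 1 array at a time, the cytosolic median ran from -0.068 (without combination replicate 3; -0.064 without ethanol replicate 2) to -0.0098 (without ethanol replicate 1). The reticulum median was -0.038 when combination replicate 1 was dropped and -0.098 when combination replicate 3 was dropped. It was -0.034 and -0.096 when ethanol replicate 1 or 2 was dropped, in that order. The mitochondrial median was -0.048 without ethanol replicate 3, 0.0025 without ethanol replicate 2 and 0.043 without combination replicate 1. That of the regulators was 0.0094 without ethanol replicate 2 and -0.065 without ethanol replicate 3.

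The mephedrone main effect, in which Dnajb4 was called, had no common direction. It was above 0 for 18 of 38 members, at a median of -0.0031, beside 0.0038 for all genes. The lowest value was that of Hspb1 (-0.24) and the highest that of Dnajb4. Both of these cytosolic genes hold a heat shock element in the promoter window, as do 8 of the 10 cytosolic genes with a window. A link between the element and these differences was not tested.

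**Figure D4:**
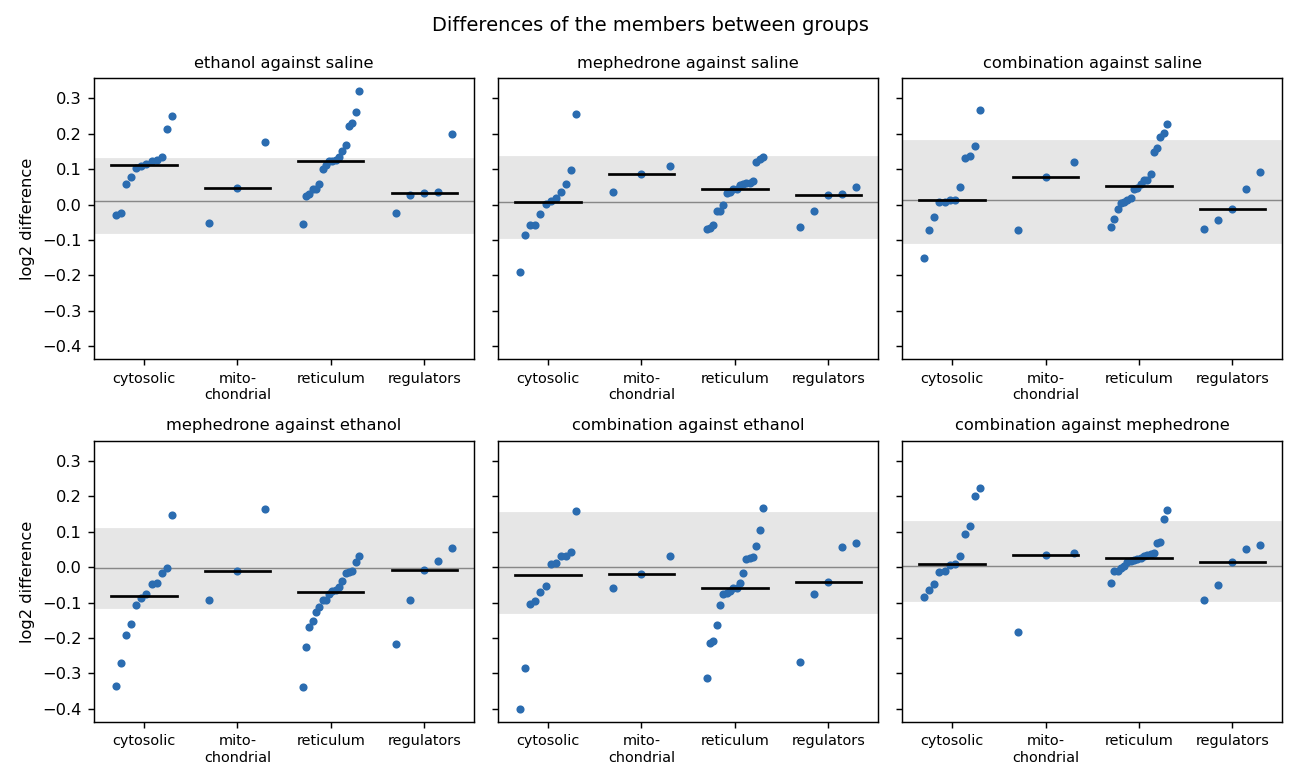
Log2 differences of the members in 6 pairwise comparisons, by compartment: each point is a gene, black bars are the median of a compartment, the grey line is the median of all 19938 genes and the grey band runs from their 5th to their 95th percentile. In ethanol against saline the medians of the cytosolic (0.11) and reticulum (0.12) genes lie near the upper edge of the band, and in mephedrone against ethanol most points lie below 0.

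The median spread within groups was wider in each compartment than over all genes, although 11 of the 38 members lay below the median of all genes. The median SD within groups was 0.11 for the cytosolic genes, 0.099 for the reticulum genes, 0.089 for the regulators and 0.075 for the mitochondrial genes, against 0.066 for all genes. After group means were removed, reticulum genes correlated with each other across the 12 arrays at a mean Pearson r of 0.43, cytosolic genes at 0.28 and cytosolic with reticulum genes at 0.35. Mitochondrial genes correlated at 0.17 and the regulators at -0.12, beside 0.0045 for all genes. These are descriptions over 12 arrays that share their tissue pieces and their normalisation. With Hspa5 the highest r was that of Bag3 (0.95), then Hspa1a (0.91), Xbp1 (0.88), Manf (0.85) and Creld2 (0.84). With Dnajb4 it was that of Hsph1 (0.77), while r between Dnajb4 and Hspa5 was 0.40. For Hspa5 and the genes named with it, the SD was largest in saline, where replicate 1 lay above replicates 2 and 3. That of Hspa5 was 0.28 in saline and 0.078 to 0.11 in the other groups. That of Bag3 was 0.22 in saline and 0.024 to 0.046 in the other groups. The r of Hspa5 with Bag3 thus rests largely on the saline arrays.

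The means over each compartment were read array by array. Cytosolic genes averaged 0.090 in saline replicate 1 and -0.088 and -0.082 in the other saline arrays, against 0.13, 0.032 and 0.074 in ethanol. Reticulum genes averaged 0.042, -0.088 and -0.11 in saline and 0.13, 0.0036 and 0.078 in ethanol. Both groups overlapped in both compartments. Mephedrone replicate 3 was the lowest of its group for cytosolic (-0.059) and reticulum genes (-0.085), and combination replicate 3 the highest of its group (0.067 and 0.085).

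**Figure D5:**
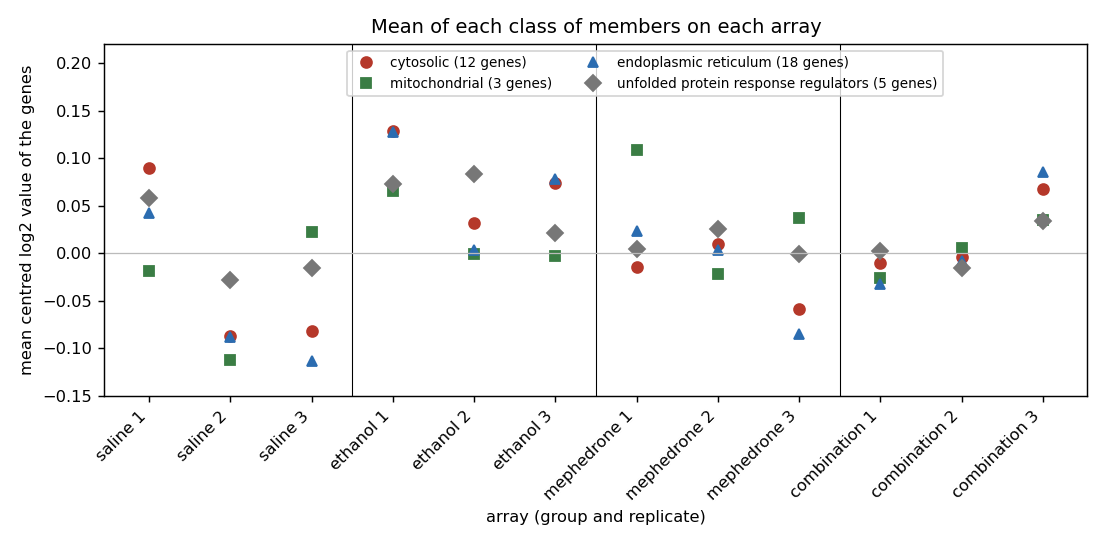
Mean centred log2 value of the genes of each compartment on each array, grouped by treatment. Cytosolic (circles) and reticulum (triangles) means move together. Both are high in saline replicate 1, ethanol replicates 1 and 3 and combination replicate 3. Both are low in saline replicates 2 and 3 and mephedrone replicate 3. The mitochondrial mean (squares) is highest in mephedrone replicate 1 at 0.11.

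Other genes of the same pathways were read from 4 lists that hold 120 measured genes: 44 cytosolic chaperones, co-chaperones and heat shock factors, 13 mitochondrial chaperones and proteases, 36 reticulum folding and degradation genes, and 27 genes of the unfolded protein and integrated stress responses. In each of the 9 contrasts 0 of the 120 passed, by limma. At an unadjusted p under 0.05 in the mephedrone main effect 13 were higher and 5 lower, 15% of the 120 beside 12.6% of all genes. The median over the 120 was 0.040 in ethanol against saline, beside 0.11 for the members. It was -0.011 in mephedrone against ethanol and 0.023 in the combination against ethanol, beside -0.071 and -0.049 for the members. Over the 36 reticulum genes of these lists it was 0.00019 and 0.020, beside -0.071 and -0.058 for the 18 reticulum members. The lower median of the members in the combination than in ethanol was thus not seen in the 120. The 2 genes with the smallest p in the cytosolic list were subunits of the Cct chaperonin that folds actin and tubulin, Cct8 (0.20, SE 0.039, adjusted p = 0.0740) and Cct6a (0.13, SE 0.033, adjusted p = 0.125). Afg3l2, a mitochondrial inner membrane protease (0.12, SE 0.024, adjusted p = 0.0777), and Dnajc10, a reticulum disulphide reductase (0.18, SE 0.035, adjusted p = 0.0751), were next to the threshold as well. Hscb, the iron-sulphur co-chaperone, differed by 0.065 and Asns, the asparagine synthetase, by 0.11. Fkbp2, a reticulum prolyl isomerase, differed by -0.13 and Vegfa, the vascular growth factor that Atf4 can raise, by -0.16 (SE 0.034, adjusted p = 0.0795). None of these passed. In the combination against ethanol the largest of the named differences was that of Slc7a11, the cystine transporter (-0.52, SE 0.18, adjusted p = 0.397), beside Dnajc10 (0.23) and Erlec1 (0.19), a lectin of the degradation pathway.

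The cold-inducible RNA-binding proteins, Rbm3 and Cirbp, whose RNA rises when temperature falls, were read beside the heat shock genes. Rbm3 was higher with mephedrone by 0.40 (SE 0.049; limma, adjusted p = 0.0142), and passed. It stood at -0.28, -0.13 and -0.19 in saline, at -0.067, -0.37 and -0.24 in ethanol, at 0.11, 0.082 and 0.068 in mephedrone, and at 0.22, 0.30 and 0.36 in the combination. As with Dnajb4, all 6 arrays with mephedrone lay above all 6 without. Cirbp differed by 0.27 (SE 0.054; adjusted p = 0.0782) without overlap and did not pass. Body temperature is not given in the sources used here, and its part in these values was not tested.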

How the data were processed

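RNA of 12 arrays (Affymetrix whole-transcript kit, per the labels' protocols) was read from 1 deposited table of log2 values for 28853 probe sets, 21789 of them with 1 gene symbol, 1621 with several and 5443 not listed. The submitters' processing notes name RMA and mm8, and the design text names GeneSpring GX 7.3.1. The deposited log2 values are centred on each probe set's median over the arrays (0 within 7.02e-07), a step no source describes. The log2 scale was read from numerical steps: 13425 probe sets step as numbers of 8 to 16 and 15420 as numbers of 4 to 8, within a tolerance of 0.1 of a step, with 8 unsettled. Centring removes levels, so signal over background cannot be given, and differences of weakly hybridised probe sets may be understated. No new normalisation was done, and the number of arrays limits the precision.

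Group means were fitted with limma 3.58.1 in R 4.3.3 (8 residual and 3.43 prior degrees of freedom), two-sided, on the mean of the single-symbol probe sets of each of 19938 genes. A main effect sets 6 arrays against 6. The script was tested on simulated data. The members and lists were chosen with earlier results of these data known. Members named in full are those called, the 3 with the smallest p per contrast and the 2 per compartment with the smallest F test p, with Cryab and others added after their values were seen. Of other pathway genes, those passing or the 2 with the smallest p per list were named for 2 contrasts. Same-numbered arrays did not deviate together in most pairs (18 pairs, r from -0.25 to 0.40, 6 over 0.1), so replicate numbers were not taken to pair arrays. The arrays of 1 group are compared as replicates. Alternatives were quantile normalisation, array centring, single probe sets, array weights, robust empirical Bayes, a replicate block, brighter probe sets, fits on only the arrays compared, and leaving out arrays. Promoter sequences are from RefSeq.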

Additional observations from a re-analysis of the deposited data

How the results depend on the processing

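In the mephedrone main effect 1 member was called. It was 0 with quantile normalisation, 0 with the replicate block and 2 (Cryab and Dnajb4) without both arrays that stood apart, and it ran from 0 to 1 when single arrays were left out. The replicate number as a block gave Dnajb4 an adjusted p of 0.0940, and quantile normalisation 0.0801 (limma). Numbers of replicates in the labels are only names here, and under the block 6 genes in all were called against 23. Over settings the count of all genes called ran widely: 9 with quantile normalisation, 39 with single probe sets, 35 with brighter probe sets, 356 with array weights, 213 without both arrays, 86 without ethanol replicate 1 and 2 without saline replicate 1. In the 8 other contrasts 0 members were called under every setting run. Over 27 named pairs of member and contrast, 546 of 558 values kept their direction and side of the threshold. The other 12, all of Dnajb4, kept direction only. Only Dnajb4 in the mephedrone main effect passed in the main fit, and it kept its call in 8 of 20 settings. No other pair had a call to lose, and most were picked for a small p, so the 546 say little of robustness. Of 204 compartment medians 200 moved by less than the spread between replicates. That spread, an SD of 0.032 to 0.067 by compartment, is as large as many of the medians, so a change of sign can fall within it. In the mephedrone main effect the reticulum median ran from -0.024 to 0.020. It kept its direction in 12 of 17 settings, and the cytosolic median in 16. The regulators in the combination against ethanol moved from -0.041 to 0.0073 with brighter probe sets, and ran from -0.065 to 0.0094 when single arrays were left out. They ran from -0.036 to 0.019 in the mephedrone main effect, and the mitochondrial genes from -0.048 to 0.043 in the combination against ethanol. The causes were not tested. Fits on only the arrays compared were run for pairwise contrasts, and the alignment of member proteins that had been planned was not run. With 3 arrays a group, the median SD within groups, 0.075 to 0.11 by compartment, is of the size of many differences reported, and no signal over background can be given.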
